A study of Mus musculus with 3 samples.

Results

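The genes of the proteasome, the protease complex that degrades ubiquitin-tagged proteins, were examined in RNA of purified mouse platelets. Members were all protein-coding genes whose symbol begins with Psma, Psmb, Psmc, Psmd, Psme, Psmf or Psmg, and 46 of the 9822 genes in the count tables qualified. RefSeq lists 51 symbols that fit this rule, and 5 of them (Psma8, Psmb11, Psmc3ip, Psme2 and Psme2b) were not analysed here. The donors were 20-week-old BALB/c males carrying wild-type Nxf1, with no other allele or treatment named, and their blood platelets gave 3 libraries of 1 group (replicates 1 to 3). The labels give each library a batch of its own and the design calls the samples independent without naming separate mice. The SD and the p-values of the test of spread therefore describe these samples, and the animal, the batch and technical spread cannot be told apart.

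The libraries held 25189231 to 26974129 counts assigned to genes. All 14 platelet and megakaryocyte markers were detected, with 7.16%, 7.52% and 7.61% of counts in replicates 1, 2 and 3. Of 14 red cell markers, 10 were in the tables, and they took 4.93%, 0.552% and 0.710% of counts, so replicate 1 stood apart. Of 25 leukocyte markers, 22 were in the tables and none of these was at 0 in a library. Together they took 0.161%, 0.184% and 0.187% of counts in replicates 1, 2 and 3. Most of this was the lysozyme gene Lyz2, which was highest in replicate 2, and the other 21 took 0.0328%, 0.0321% and 0.0507%, highest in replicate 3. In bulk RNA, fewer cells of a type and less RNA per cell cannot be told apart, and a transcript at these levels cannot be assigned to platelets alone.

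The 20S core of the proteasome is a barrel of outer alpha rings, which gate entry, and inner beta rings, which hold the proteolytic sites. The 19S regulator caps the core: its base contains a ring of ATPases that unfold substrates, and its lid removes ubiquitin chains. In immune cells and under interferon, Psmb8, Psmb9 and Psmb10 replace the constitutive catalytic subunits to form the immunoproteasome, which favours peptides for MHC class I. Activators of the PA28 family and PA200 can cap the core in place of 19S. Platelets have no nucleus and inherit proteasomes and their messenger RNAs from megakaryocytes, and proteasome inhibitors lower platelet counts in patients.

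Proteasome genes as a set were present at modest levels. Levels are given as RPKM, here the counts of a gene per 1000000 counts assigned to genes (CPM), divided by the gene length of the tables in units of 1000 bases. The median member had 4.64 RPKM, against 1.49 RPKM for the median of all 9822 genes, and 41 of the 46 members lay above that median. A gene counted as detected at 1 CPM or more in every library: 44 of 46 members did so, where 77.7% of all genes did. The exceptions were the assembly chaperones Psmg1 and Psmg3. The share of all counts taken by the members was 0.0505% in replicate 1, with exact 95% Clopper-Pearson bounds of 0.0496% and 0.0513%. It was 0.0498% in replicate 2 (bounds 0.0489% and 0.0507%) and 0.0581% in replicate 3 (bounds 0.0572% and 0.0590%), the highest of the 3. These bounds take in counting error alone. Of the 46 members, 28 were under 10 CPM. The median member had 6.60 CPM, against 3.86 CPM for the median of all 9822 genes.

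**Figure D1:**
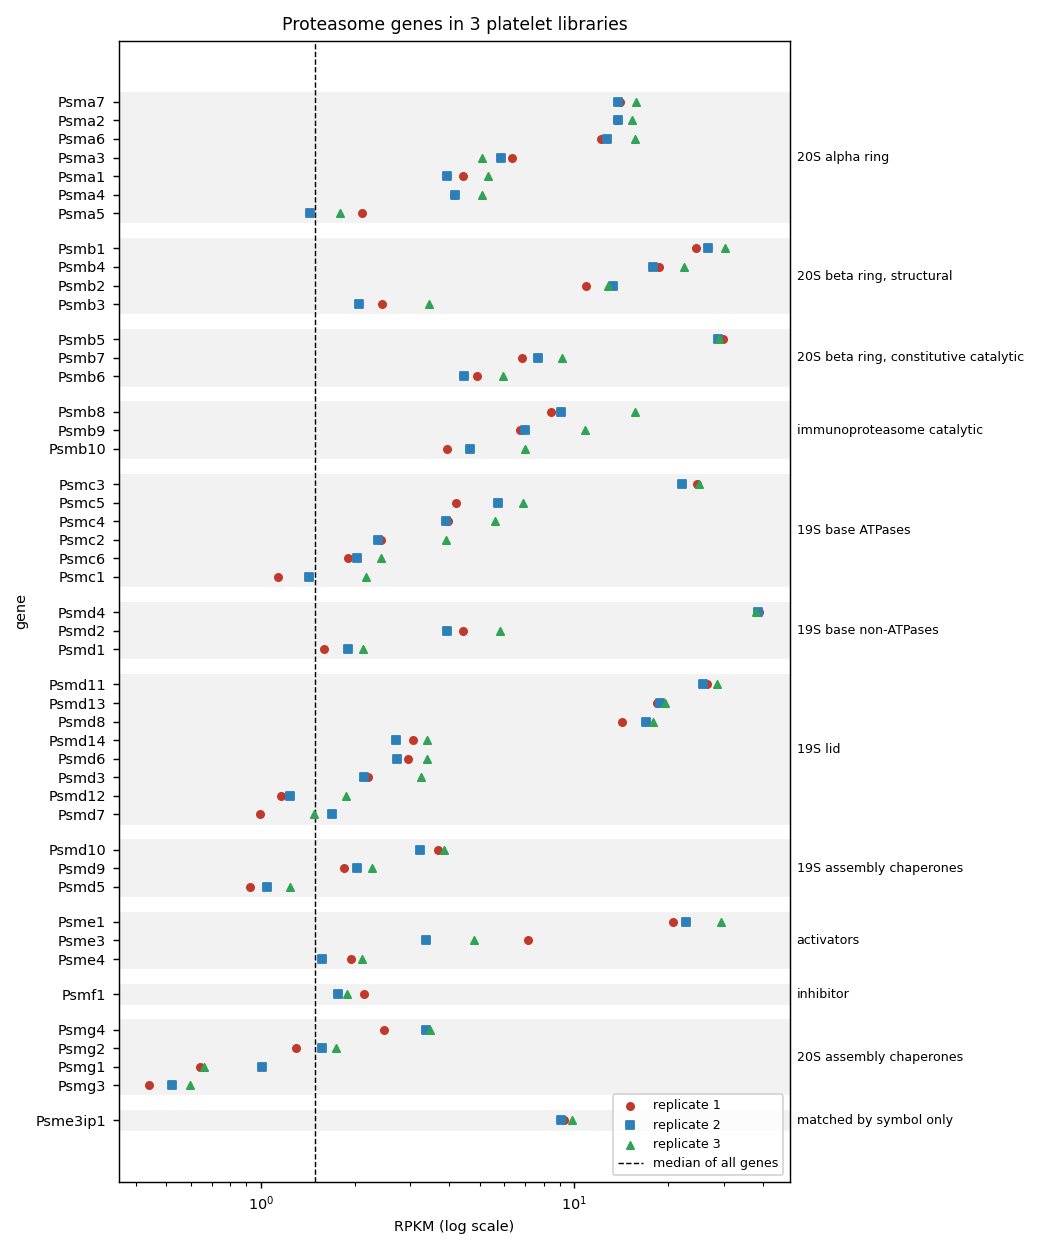
RPKM (log axis) of the 46 proteasome genes in each of the 3 libraries, grouped by role, with replicates as separate symbols and the median of all genes as a dashed line. Subunits of one complex that fit the symbol rule are spread widely, from 1.78 to 29.2 RPKM in the 20S core and from 1.39 to 38.6 RPKM in 19S.

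Subunits that are present in equal numbers in the 20S core were unequal in RNA. The 14 constitutive core genes ranged over 16.4-fold, and they split into 7 genes between 12.3 and 29.2 RPKM and 7 between 1.78 and 7.89 RPKM. In the alpha ring, Psma7, the alpha4 subunit, had 13.97, 13.8 and 15.7 RPKM in replicates 1, 2 and 3 (mean 14.5 ± 1.08, SD, n = 3). Psma2, the alpha2 subunit, had 13.8, 13.8 and 15.3 RPKM (14.3 ± 0.902), so the ranges of these genes overlapped. Psma6 followed at 13.5 ± 1.87 RPKM, and Psma3, Psma1 and Psma4 lay at 4.46 to 5.77 RPKM. The lowest was Psma5, the alpha5 subunit, with 2.10, 1.44 and 1.79 RPKM (1.78 ± 0.334), from 69, 44 and 57 counts. It lay below the other 6 alpha genes in all 3 libraries.

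Among the beta subunits without a proteolytic site, Psmb1, the beta6 subunit, was highest with 24.5, 26.7 and 30.3 RPKM in replicates 1, 2 and 3 (27.2 ± 2.91, SD, n = 3). Psmb4, the beta7 subunit, had 18.7, 17.8 and 22.4 RPKM (19.6 ± 2.43), and Psmb2 averaged 12.3 ± 1.27 RPKM. Psmb3, the beta3 subunit, had 2.43, 2.06 and 3.46 RPKM (2.65 ± 0.722), from 48, 38 and 66 counts. The log2 ratio of Psmb1 to Psmb3 was 3.39 ± 0.28, or 10.5-fold, and the ranges did not overlap. Of the windows of 50 bases in the Psmb3 transcript, 55.8% also occur in other genes, mainly pseudogenes, and for Psma5 the share was 54.5%. Reads from such copies can be lost or divided in counting, and their part in these low values was not tested.

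The catalytic sites are where the immunoproteasome and the constitutive core differ, so the 3 pairs were compared within each library. Psmb8, the immunoproteasome form of the chymotrypsin-like site (beta5), had 8.46, 9.12 and 15.7 RPKM in replicates 1, 2 and 3 (mean 11.1 ± 3.997, SD, n = 3). Its constitutive counterpart Psmb5 had 29.9, 28.7 and 29.1 RPKM (29.2 ± 0.598). Psmb8 was below Psmb5 in all 3 libraries, at a log2 ratio of -1.45 ± 0.50.

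At the caspase-like site (beta1) the order was the other way round. Psmb9, the immunoproteasome form, had 6.72, 6.99 and 10.9 RPKM in replicates 1, 2 and 3 (8.20 ± 2.33, SD, n = 3). Psmb6, the constitutive form, had 4.90, 4.45 and 5.95 RPKM (5.10 ± 0.772). Psmb9 lay above Psmb6 in each library, and the RPKM ranges of the pair did not overlap, with a log2 ratio of 0.66 ± 0.21. By CPM it was also higher in each library, but the ranges overlapped, at 5.41 to 8.77 for Psmb9 and 4.61 to 6.17 for Psmb6. At the trypsin-like site (beta2), Psmb10 had 3.94, 4.66 and 6.996 RPKM (5.20 ± 1.60) and the constitutive Psmb7 had 6.81, 7.70 and 9.17 RPKM (7.89 ± 1.19). Psmb10 was lower in each library, with a log2 ratio of -0.64 ± 0.21, but its value in replicate 3 exceeded that of Psmb7 in replicate 1. In replicate 3 the order depended on the length used. Both genes had 232 counts there, and divided by coding length Psmb10 made up 50.4% of the pair.

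Expressed as a share of the RNA per site, the immunoproteasome form made up 61.2% ± 3.42 at beta1, 39.2% ± 3.56 at beta2 and 27.1% ± 6.99 at beta5 (SD, n = 3). Over all sites together, Psmb8 to Psmb10 made up 31.5%, 33.7% and 43.2% in replicates 1, 2 and 3, and the log2 ratio of their sum to that of Psmb5 to Psmb7 was -0.83 ± 0.38. That ratio rested on the beta5 site: without Psmb8 and Psmb5 it was 0.015 ± 0.20. Divided by coding length instead of gene length, the shares were 57.2%, 46.1% and 33.16% at beta1, beta2 and beta5, in the same order. Ratios over 3 libraries carry no p-value, since an exact two-sided sign-flip test cannot go below p = 0.25. Psmb5 shares 50% of its windows with other genes, mainly a pseudogene, and Psmb8, Psmb9, Psmb10 and Psmb7 share none. On the opposite strand, the exons of Psmb8 overlap those of the antisense gene Gm20496 by 498 bases, those of Psmb9 overlap Tap1 by 212 bases and those of Psmb7 overlap Nek6 by 405 bases, so some reads of these pairs cannot be told apart where strand was not recorded.

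**Figure D2:**
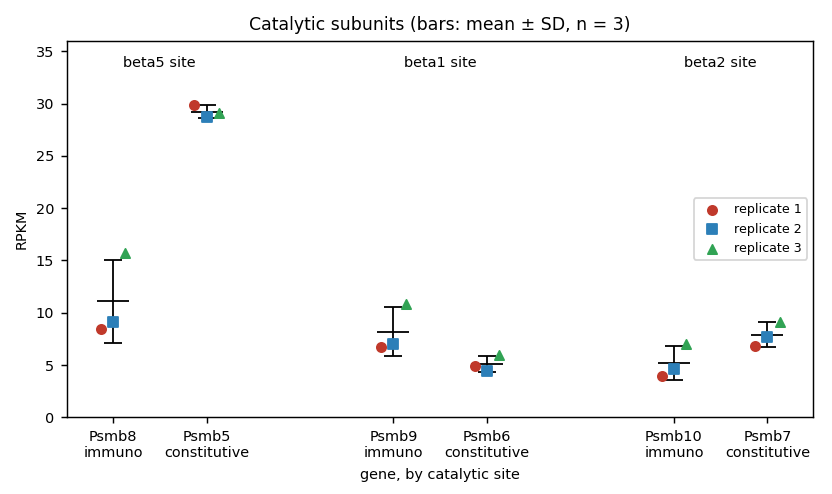
RPKM of the immunoproteasome (left of each pair) and constitutive (right) catalytic subunits at the beta5, beta1 and beta2 sites. Symbols are the 3 libraries and bars the mean ± SD (n = 3), with Psmb8 at 8.46 to 15.7 RPKM below Psmb5 at 28.7 to 29.9, Psmb9 above Psmb6, and all 3 immunoproteasome genes highest in replicate 3.

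The promoters of the beta5 and beta1 pairs are shown because constitutive proteasome genes are known to be driven by the factor Nfe2l1 through the antioxidant response element, and immunoproteasome genes are known to be induced by interferon. Each is 300 bases from RefSeq (GRCm38.p6), from 250 bases before the annotated start to 50 after it, on the strand of the gene. Capitals mark the motifs TGACNNNGC (antioxidant response element) and TTCNNNGAA (the gamma-activated sequence of interferon-responsive genes), and would mark the interferon-stimulated response element, searched on both strands. The windows are chr17:34197945-34198244, plus strand (Psmb8), chr14:54617946-54618245, minus strand (Psmb5), chr17:34187281-34187580, minus strand (Psmb9) and chr11:70525107-70525406, plus strand (Psmb6).
Psmb8: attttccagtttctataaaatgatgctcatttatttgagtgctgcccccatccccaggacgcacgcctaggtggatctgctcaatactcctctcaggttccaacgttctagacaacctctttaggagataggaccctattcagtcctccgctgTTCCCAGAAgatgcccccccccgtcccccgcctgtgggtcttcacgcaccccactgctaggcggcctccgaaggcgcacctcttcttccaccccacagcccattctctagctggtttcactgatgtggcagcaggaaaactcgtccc
Psmb5: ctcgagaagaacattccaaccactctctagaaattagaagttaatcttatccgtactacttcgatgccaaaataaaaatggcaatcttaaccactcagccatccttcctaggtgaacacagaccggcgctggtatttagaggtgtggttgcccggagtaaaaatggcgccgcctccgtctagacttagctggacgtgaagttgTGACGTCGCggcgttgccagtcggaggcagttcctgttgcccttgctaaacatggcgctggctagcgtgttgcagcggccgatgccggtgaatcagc
Psmb9: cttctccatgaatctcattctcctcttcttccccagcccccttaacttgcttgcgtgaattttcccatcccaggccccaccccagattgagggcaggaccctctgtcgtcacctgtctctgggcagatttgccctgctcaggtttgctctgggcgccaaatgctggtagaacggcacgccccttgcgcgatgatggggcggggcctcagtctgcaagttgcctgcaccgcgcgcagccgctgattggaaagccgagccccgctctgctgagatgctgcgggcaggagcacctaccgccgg
Psmb6: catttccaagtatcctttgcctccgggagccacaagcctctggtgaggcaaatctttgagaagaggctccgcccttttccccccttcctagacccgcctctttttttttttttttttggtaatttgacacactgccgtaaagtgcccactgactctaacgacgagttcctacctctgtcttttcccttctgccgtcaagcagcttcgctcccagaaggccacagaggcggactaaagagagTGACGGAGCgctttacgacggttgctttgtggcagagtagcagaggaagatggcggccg
With the annotated start as position 0, the Psmb8 window held TTCNNNGAA at -97 to -89, Psmb5 held TGACNNNGC at -47 to -39 and Psmb6 held it at -9 to -1, with no overlap between motifs. The Psmb6 gene itself begins earlier than the start used for its window, at chr11:70525324, so its motif lies within the gene. The Psmb9 window held none of these letters.

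Over the 39 members with a promoter in the RefSeq table, 6 held TGACNNNGC, 3 held TTCNNNGAA and 5 held the interferon-stimulated response element in at least 1 window. Among the 7606 genes of the count tables with a promoter the shares were 17.3%, 8.14% and 3.90%, and among all 32851 promoter windows 12.4%, 8.30% and 3.44%. The members with the antioxidant response element were Psmb5, Psmb6, Psmc6, Psmd12, Psmd9 and Psme4. Those with the gamma-activated sequence were Psmb8, Psmd2 and Psmg1. Those with the interferon-stimulated response element were Psmb3, Psmd4, Psmd9, Psme1 and Psmg4, with no immunoproteasome gene among them. The RNA levels of these sets together spanned most of the range of the members. The first ran from Psmd12 at 1.42 RPKM to Psmb5 at 29.2 RPKM and the second from Psmg1 at 0.769 RPKM to Psmb8 at 11.1 RPKM. The third ran from Psmd9 at 2.05 RPKM to Psmd4 at 38.6 RPKM. A match describes the letters of the window and not binding.

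The 17 genes of the 19S regulator that fit the symbol rule ranged over 27.8-fold. Of these 17 genes, 5 lay between 16.4 and 38.6 RPKM (Psmd4, Psmd11, Psmc3, Psmd13 and Psmd8) and the other 12 between 1.39 and 5.60 RPKM, with no gene between. The 19S subunits Sem1 and Adrm1, outside the rule, lay beyond both ends of this range at means of 59.2 and 0.685 RPKM. Psmd4, the ubiquitin receptor Rpn10, was the highest of all members, with 39.0, 38.8 and 38.1 RPKM in replicates 1, 2 and 3 (38.6 ± 0.472, SD, n = 3). It lay above 91.1% of all genes. The other non-ATPases of the base are large scaffolds that hold the ubiquitin-binding face together. Psmd2 (Rpn1) had 4.41, 3.94 and 5.82 RPKM (4.72 ± 0.979), and Psmd1 (Rpn2) had 1.59, 1.90 and 2.13 RPKM (1.88 ± 0.268). The log2 ratio of Psmd4 to Psmd1 was 4.38 ± 0.23, a 20.8-fold difference.

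The 6 ATPases of the base form a single ring, yet 1 of them stood far above the rest. Psmc3, the Rpt5 subunit whose tail docks onto the alpha ring, had 24.7, 22.0 and 25.1 RPKM in replicates 1, 2 and 3 (23.9 ± 1.65, SD, n = 3). Psmc5, the Rpt6 subunit, came next with 4.21, 5.72 and 6.87 RPKM (5.60 ± 1.33). Psmc1, the Rpt2 subunit, was lowest with 1.14, 1.43 and 2.17 RPKM (1.58 ± 0.532), from 46, 54 and 85 counts. The log2 ratio of Psmc3 to the median of the other 5 ATPases was 3.36, 3.22 and 2.68 in replicates 1, 2 and 3 (3.09 ± 0.36), or 8.49-fold. Psmc3 shares no window with another gene, while 17.6% of the Psmc1 windows do. The exons of Psmc3 overlap Slc39a13 on the opposite strand by 215 bases.

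The lid showed the same split. Psmd11, the Rpn6 subunit that clamps the lid to the core, had 26.6, 25.8 and 28.6 RPKM in replicates 1, 2 and 3 (27 ± 1.46, SD, n = 3). Psmd13 (Rpn9) had 18.5, 18.7 and 19.5 RPKM (18.9 ± 0.542) and Psmd8 (Rpn12) averaged 16.4 ± 1.90 RPKM. The deubiquitinase Psmd14 (Rpn11), which cuts chains from substrates, was far lower at 3.06 ± 0.350 RPKM. Its partner Psmd7 (Rpn8) was the lowest lid gene by mean, with 0.996, 1.69 and 1.48 RPKM (1.39 ± 0.355), from 43, 68 and 62 counts, and its range overlapped that of Psmd12 (1.42 ± 0.386). As classes, the median 19S gene had 3.06, 2.73 and 3.91 RPKM in replicates 1, 2 and 3, against 8.85, 10.2 and 10.98 RPKM for the median gene of the 20S core. The log2 ratio was -1.64 ± 0.23, and it was -0.79 when the mean of log2 values took the place of the median.

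The activators were led by PA28 alpha. Psme1, which encodes it, had 20.7, 22.8 and 29.5 RPKM in replicates 1, 2 and 3 (24.3 ± 4.58, SD, n = 3), in the range of the highest core genes. Psme3, the nuclear activator PA28 gamma, had 7.15, 3.38 and 4.78 RPKM (5.10 ± 1.90). Psme4, the nuclear activator PA200, had 1.94, 1.57 and 2.11 RPKM (1.87 ± 0.279). The log2 ratio of Psme1 to Psme4 was 3.70 ± 0.24 and that to Psme3 was 2.30 ± 0.67, both above 0 in all 3 libraries. Both sizes depended on the length used: on coding length Psme1 to Psme4 was 3.86 and Psme1 to Psme3 was 0.91, and on CPM with no division by length they were 0.97 and 0.88. The median of these 3 activators against the median of the 20S core had a log2 ratio of -1.04 ± 0.66, but on coding length it was 0.27 ± 0.55, so no order of the classes is given. Psmf1, the inhibitor PI31, had 2.14, 1.77 and 1.88 RPKM (1.93 ± 0.187) and overlapped Psme4 in range. Psme3ip1, which encodes a binding partner of PA28 gamma and is no subunit, had 9.31, 9.11 and 9.85 RPKM (9.42 ± 0.384).

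The chaperones of the 20S core that fit the symbol rule had the lowest median of the classes, at 1.15 ± 0.167 RPKM. They are encoded by Psmg1 to Psmg4 and work in pairs to build the alpha ring. Pomp, a core assembly factor outside the rule that was named after its values were seen, was far higher. It had 21.9, 22.7 and 24.3 RPKM in replicates 1, 2 and 3. Psmg4 had 2.47, 3.38 and 3.47 RPKM in replicates 1, 2 and 3 (3.10 ± 0.553, SD, n = 3) and Psmg2 had 1.30, 1.57 and 1.74 RPKM (1.54 ± 0.223). Psmg1 had 17, 25 and 17 counts, or 0.630, 0.992 and 0.651 CPM. Psmg3 had 10, 11 and 13 counts, or 0.371, 0.437 and 0.498 CPM, all above the 0.111 to 0.119 CPM that a count of 0 would allow. Of the chaperones of the 19S base, Psmd10 (gankyrin) had 3.69, 3.22 and 3.84 RPKM (3.58 ± 0.325). Psmd9 had 1.85, 2.04 and 2.26 RPKM (2.05 ± 0.208) and Psmd5 had 0.926, 1.05 and 1.24 RPKM (1.07 ± 0.157). The exons of Psmd9 overlap those of the non-coding gene Gm26745 on the opposite strand by 1849 bases, the largest overlap of any member.

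No member passed the test of spread between the libraries. The coefficient of variation of CPM over the 3 libraries had a median of 14.6% for members and 14.4% for 8289 genes averaging at least 1 CPM, and ran from 1.22% for Psmd4 to 37.3% for Psme3. The low value of Psmd4 depended on the scaling: its SD was 0.472 RPKM on plain totals, 3.67 RPKM with TMM scaling and 4.37 RPKM with DESeq2 size factors. The test of spread set each gene's edgeR quasi-likelihood dispersion against the trend over all 8289 genes. It called 0 of 44 members at a Benjamini-Hochberg adjusted p under 0.05, where 0.265% of all genes were called. At an unadjusted p under 0.05 it marked 2 members, Psme3 and Psmb8, where 4.72% of all genes were marked. DESeq2 marked 1 member, Psme3, as a dispersion outlier.

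The immunoproteasome genes were highest together in replicate 3. By CPM, Psmb8 had 10.3, 11.2 and 19.2, Psmb9 had 5.41, 5.64 and 8.77, and Psmb10 had 5.005, 5.92 and 8.88 in replicates 1, 2 and 3. Replicate 3 was also the highest for 37 of the 46 members and for 68.7% of all genes, and after TMM scaling for 20 of 46 members and 43.4% of all genes. TMM-scaled, the log2 ratio of replicate 3 to the mean of the other libraries was 0.62 for Psmb8, 0.45 for Psmb9 and 0.49 for Psmb10, against a median of 0.06 for members and 0.02 for genes averaging at least 1 CPM. Psmb8 lay above 91.1% of those genes by this ratio, Psmb10 above 84.8% and Psmb9 above 83.0%. None passed the edgeR test of spread (adjusted p = 0.990 for each of the 3).

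The sum of the leukocyte markers other than Lyz2 was also highest in replicate 3. Lyz2 had 1286, 1515 and 1361 CPM in replicates 1, 2 and 3, and with it the list summed to 1614, 1837 and 1868 CPM. Without it the sum was 328, 321 and 507 CPM. After TMM scaling 15 of the 21 were highest in replicate 3, where 43.4% of all genes were. Much of the sum in replicate 3 was Cd74 at 167 CPM and H2-Aa at 127 CPM. Some markers went the other way, such as Csf1r and Nkg7, with TMM-scaled log2 ratios of replicate 3 to the others of -0.66 and -0.25. Psmb8 to Psmb10 summed to 20.8, 22.7 and 36.8 CPM, and the 14 core genes to 151, 152 and 172 CPM. The part of leukocyte RNA in the immunoproteasome values was not tested.

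**Figure D3:**
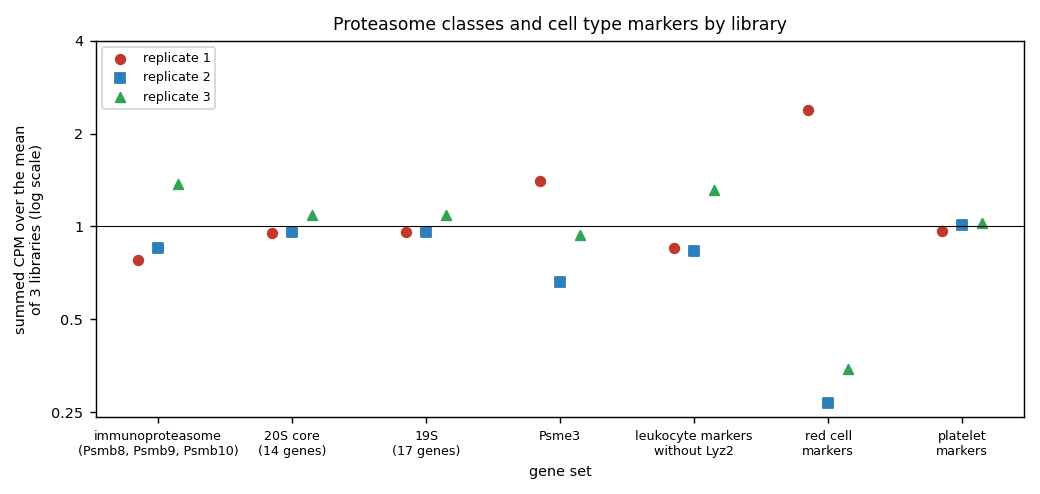
Summed CPM of proteasome and marker gene sets in each library, divided by the mean of the 3 libraries (log axis). Psmb8 to Psmb10 and the leukocyte markers without Lyz2 are highest in replicate 3, Psme3 and the red cell markers in replicate 1, and the platelet markers differ little.

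Psme3 was highest in replicate 1. It had 505, 223 and 327 counts, or 18.7, 8.85 and 12.5 CPM, in replicates 1, 2 and 3. TMM-scaled, replicate 1 exceeded the mean of the other libraries by 0.94 on the log2 scale, above 99.6% of genes averaging at least 1 CPM. Replicate 1 was the highest for 6 of the 46 members and 15.5% of all genes by CPM, and for 15 members and 29.6% of all genes after TMM scaling. The edgeR test of spread gave an adjusted p of 0.357, which was 0.0407 with a robust prior, 0.0223 without replicate 3 and 0.983 without replicate 1. The red cell markers summed to 49252, 5524 and 7100 CPM, all 10 highest in replicate 1, and their part in the Psme3 value was not tested.

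**Figure D4:**
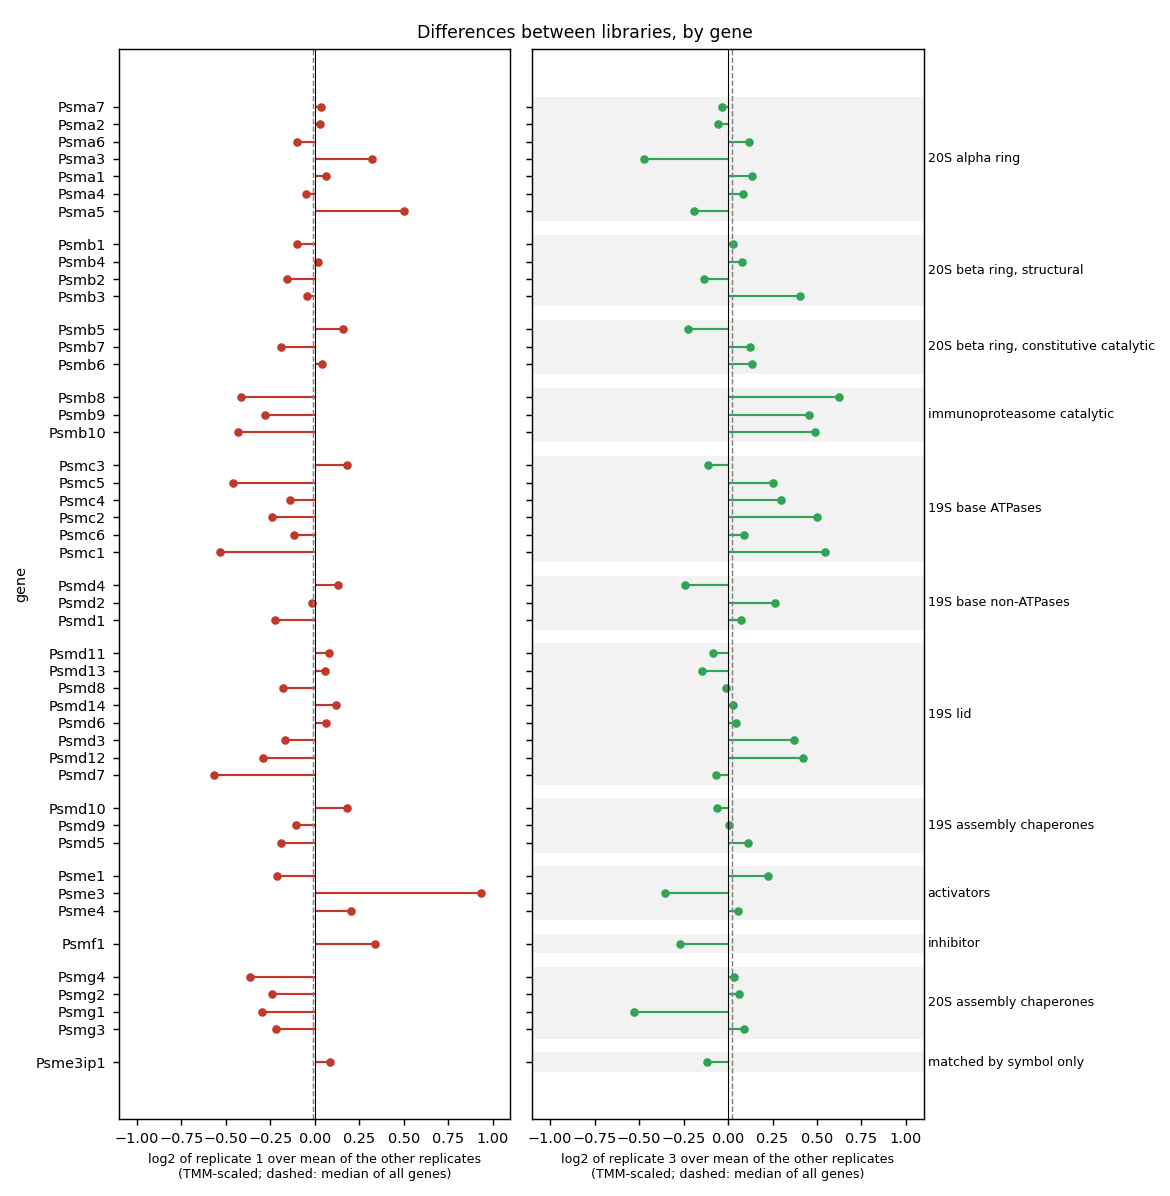
Log2 ratio (TMM-scaled CPM) of replicate 1 (left panel) and of replicate 3 (right panel) to the mean of the other libraries for each member, grouped by role, with the median of genes averaging at least 1 CPM as a dashed line. Psme3 lies at 0.94 in the left panel, and Psmb8, Psmb9 and Psmb10 lie at 0.45 to 0.62 in the right panel.

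Several members have near-identical copies in the genome, mostly processed pseudogenes, which bears on how far their counts can be trusted. Of the 46 members, 28 shared no window of 50 bases with the transcripts of another gene in GENCODE M21, and 9 shared more than 10%. These were Psmb3, Psma5, Psmb5, Psmd2, Psma4, Psma3, Psmd11, Psmc1 and Psme1, with shares from 55.8% for Psmb3 down to 14.1% for Psme1. They included both high genes (Psmb5, Psmd11 and Psme1) and low ones (Psma5, Psmb3 and Psmc1). Without the subunits above 10%, the log2 ratio of the 19S median to the 20S median was -2.13 in place of -1.64. Exons of 14 members overlap another gene, 12 of them on the opposite strand, and the treatment of strand and of shared reads is not given in the sources used here.

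**Figure D5:**
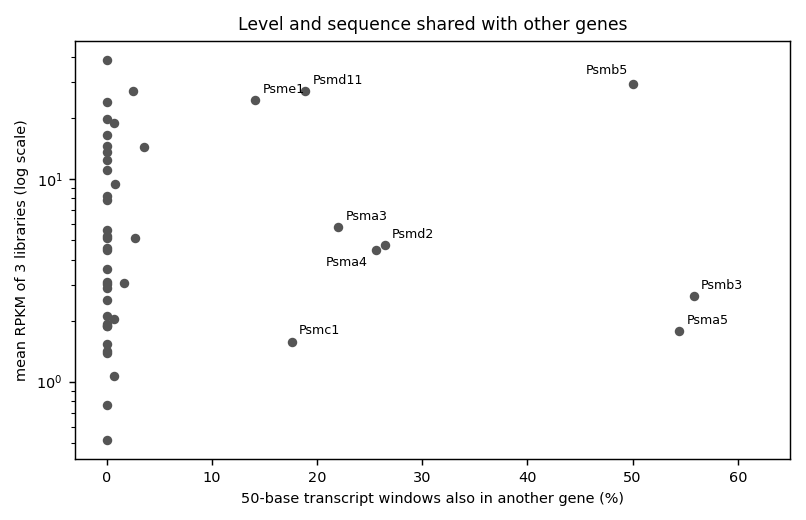
Mean RPKM of each member (vertical, log axis) against the percentage of its 50-base windows that also occur in another gene (horizontal). The 9 members above 10% run from 14.1% (Psme1) to 55.8% (Psmb3) and include genes of high and of low RPKM.

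Genes that act with the proteasome but lie outside the symbol rule were read from a list of 28, of which 26 were in the tables and 24 were detected, where 77.7% of all genes were. None was called by the edgeR test of spread, and their median was 3.87 RPKM. Ubb, a polyubiquitin gene, was highest with 757, 690 and 676 RPKM in replicates 1, 2 and 3 (708 ± 43.6, SD, n = 3). Sem1, a small 19S lid subunit whose symbol does not match, had 60.9, 57.7 and 59.0 RPKM (59.2 ± 1.57), above every member. Uba1, the main ubiquitin-activating enzyme, had 44.4, 46.6 and 48.8 RPKM (46.6 ± 2.19). The lowest was Uba6, the other activating enzyme, with 0.153, 0.101 and 0.113 RPKM. Adrm1, the 19S ubiquitin receptor Rpn13, was named after its values were seen and had 0.726, 0.472 and 0.858 RPKM. It was not detected, with 0.675 CPM in replicate 2 and a mean of 0.979 CPM, in contrast to the receptor Psmd4.

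The immunoproteasome feeds peptides to MHC class I, and 5 of 7 genes of that loading pathway and its interferon regulators were detected, a share near the 77.7% of all genes. B2m, the class I light chain, was highest at 6051 ± 158 RPKM (SD, n = 3), followed by the loading factor Tapbp at 10.1 ± 1.46 RPKM. The class I transactivator Nlrc5 was lowest at 0.349 ± 0.151 RPKM. Tap1 and Tap2, which encode the peptide transporter, were named after their values were seen and had 0.491 ± 0.140 and 0.448 ± 0.0685 RPKM. Neither counted as detected, but each fell just under 1 CPM in only 1 library. Tap1 had 0.992 CPM in replicate 2 and Tap2 had 0.996 CPM in replicate 3, and their means were 1.45 and 1.11 CPM. Their RNA was thus present near the detection minimum. Nlrc5 was detected at a lower RPKM because detection was set on CPM, where it averaged 2.42.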

How the data were processed

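RNA of wild-type platelets was measured in 3 libraries of 1 group. The deposited tables hold whole-number counts per gene, with gene lengths, for the same 9822 genes in each library; the filter behind them is not given in the sources used here. The submitters' processing notes name CASAVA 1.8.2, Subread, featureCounts, edgeR 3.11.5 and the build mm10, without order or settings. Of the gene identifiers, 9636 matched a RefSeq symbol.

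CPM (on the total of the counts) and RPKM were computed from the counts. The spread between libraries was tested with edgeR 4.0.16 in R 4.3.3 (TMM factors, intercept only, genes averaging at least 1 CPM, Benjamini-Hochberg adjustment), and DESeq2 1.42.0 was an alternative. The procedure was tested on simulated data. Ratios are given as mean and SD over libraries with no p-value. Every member could be named. Values by library were given for the catalytic and activator genes, the 2 highest and the lowest gene of other classes, and genes under 1 CPM, and from the added lists the 3 highest and the lowest. The value of 1 gene that this rule names is not reported here. Members and lists were chosen with earlier results of these data known. Alternatives covered the detection minimum, scaling, length, filters and each library left out. Promoters came from RefSeq (GRCm38.p6).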

Additional observations from a re-analysis of the deposited data

How the results depend on the processing

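At a minimum of 5 CPM, 26 members were detected. The share of all genes at that minimum in every library is not given here. By the mean of the libraries, 32 of the 46 members and 4351 of all 9822 genes reached 5 CPM. Members called in the spread test numbered 1 (Psme3) with a robust prior and by DESeq2, and 0 to 1 over the fits that left out a replicate. Without division by length, the log2 ratios were 0.30 for Psmb9 over Psmb6, -0.24 for Psmb10 over Psmb7, -0.71 for 19S over 20S and, reversed, 0.51 for activators over 20S. The following alternatives were chosen after seeing the data. At a minimum of 5 CPM, 15 pathway genes were detected. With coding length, the log2 ratios were 0.42 for Psmb9 over Psmb6, -0.22 for Psmb10 over Psmb7 and, reversed, 0.27 for activators over 20S. Immunoproteasome over constitutive genes was 0.015, reversed, without Psmb8 and Psmb5. The ratio of 19S to 20S was -2.13 without subunits that share windows. Of the 46 members, 20 were highest in replicate 3 with TMM, where 43.4% of all genes were. With DESeq2 size factors 16 were, where 39.1% of all genes were. Among the alternatives chosen earlier, 19S over 20S was -0.79 with means of log2 values. The causes were not tested beyond what each change itself alters. No paired analysis was possible because there is 1 group. Coding length of the RefSeq protein and the ratio of Psme1 to Psme2 were not run, since those tables and Psme2 were not used here. Members with under 100 counts per library, such as Psma5, Psmb3 and Psmg3, are limited by depth.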

Other observations

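Within 19S, level and the relative value in replicate 3 went in opposite directions. The 5 genes over 10 RPKM all had a TMM-scaled log2 ratio of replicate 3 to the other libraries below 0 (median -0.11), and 11 of the 12 lower genes had one above 0 (median 0.26). In the 20S core the split was weaker. There, 4 of the 7 genes over 10 RPKM had this ratio below 0 and 5 of the 7 lower genes had it above 0. Over the 31 core and 19S subunits, Pearson's r between log2 level and this ratio was -0.53 and Spearman's rho -0.53. Over all 46 members they were weaker, at -0.12 and -0.19, and over the 44 members averaging at least 1 CPM they were -0.25 and -0.27. Over all 8289 genes averaging at least 1 CPM they were -0.38 and -0.41, so the direction was shared with the other genes. These are correlations across genes that share the same 3 libraries, and genes are not independent replicates.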
